A study of Rattus norvegicus with 18 samples.

Results

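The comparison set cultures that received extracellular vesicles and then glutamate against untreated cultures. Its members were chosen by sample title, namely Glutamate_vesicles 1, 2 and 3 and Control 1, 2 and 3, which are 6 of the 18 RNA sequencing libraries of the series. The libraries came from primary neuroglial cultures of the cerebral cortex of newborn Wistar rats, in which neurons grow together with astrocytes and other glia. All cultures had been given cytosine arabinoside, a drug that stops dividing cells and limits the number of glia. The model was set up on day 9 or 10 in vitro. Control cultures received neither glutamate nor vesicles. Glutamate_vesicles cultures were given vesicles 1 day before 100 µM glutamate in a solution that also held glycine, and their RNA was isolated 4 h after the excitotoxicity model. The vesicles had been collected from human glial progenitor cells, which were made from induced pluripotent stem cells. Glutamate and vesicles were both absent from Control and both present in Glutamate_vesicles, and no library used here had vesicles without glutamate, so that in this comparison their effects cannot be told apart. The Glutamate libraries, which had glutamate and no vesicles, are given beside it where needed.

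Excitotoxicity is the injury of neurons by excess glutamate. Glutamate opens ionotropic receptors of the NMDA, AMPA and kainate types, calcium enters through the NMDA type in particular, and calcium pumps and exchangers then have to remove it. Calcium and growth factor signals switch on immediate early genes within minutes to hours, whereas damaged membranes are resealed by ferlins and annexins. Astrocytes respond to injury by raising intermediate filament genes such as Vim and Gfap, and glia can release chemokines that draw in immune cells. Extracellular vesicles are membrane-bound particles that carry proteins and RNA between cells.

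In cultures with vesicles and glutamate, the genes called lower than in Control included neuronal genes such as Slc17a7, Tubb3 and Syp. Those called higher included the chemokine genes Ccl2 and Ccl7 and some members of the lists for membrane repair, extracellular matrix and reactive astrocytes, while most members of each list were not called. Of 14398 genes tested, 538 (3.74%) were called at a Benjamini-Hochberg adjusted p below 0.05 in the quasi-likelihood test of edgeR with the replicate number as a block. Among them 139 (0.965%) were higher, with a median log2 fold change of 2.17, and 399 (2.77%) were lower, with a median of -2.02. The median over all genes tested was -0.01. The difference had the same sign in all 3 same-numbered pairs for 535 of the 538, and the CPM values of the groups were fully separate in 135 of those higher and 364 of those lower. Over all genes tested 9.72% were separate and higher and 9.83% separate and lower. The 538 were selected on these same libraries, so their agreement in sign and their separation add no support to the calls. An unadjusted p below 0.05 was reached by 2855 genes (19.8%), and by 2817 (19.6%) together with a fold above 1.5.

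These calls sat close to the threshold and depended on the replicate block. Of the 538, 536 had an adjusted p of 0.02 or more. Without the block only Gja5 and Dysf were called (0.0139%). In that fit all 538 kept their direction and 520 had an unadjusted p below 0.05. Both fits use the same libraries, on which the 538 were selected, so these counts add no support to the calls. Leaving out Control 2 left 0 calls, with 2859 genes at an unadjusted p below 0.05 and a smallest adjusted p of 0.0633. Leaving out Glutamate_vesicles 1, 2 or 3 left 1, 4 and 1 calls. All "rose" and "fell" below refer to the fit with the block, and n was 3 libraries in each group. The methods say in general that experiments were repeated on unrelated cultures, but neither they nor the labels tie this to the libraries of a group, so p-values measure the spread between these libraries, which may be technical.

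Control 1 stood apart. Ribosomal RNA made up 43.0% of its counts, against 6.80% and 6.58% in Control 2 and 3 and 5.28% to 13.4% in the Glutamate_vesicles libraries. Its total was 8409574 counts and it had 14318 genes with a count, the lowest values of the 6 libraries, whose other totals ran from 11381280 to 17206354. Without Control 1, 403 genes were called, 46 higher and 357 lower, of which 295 were among the 538. The part that ribosomal RNA plays in the differences was not tested beyond a fit with its share as a covariate, in which 489 of the 538 were called among 674 genes. Counts of called members without Control 1 stand beside the gene lists below. For comparison with these lists, 3.74% of all genes tested were called, and 19.8% had an unadjusted p below 0.05.

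**Figure D1:**
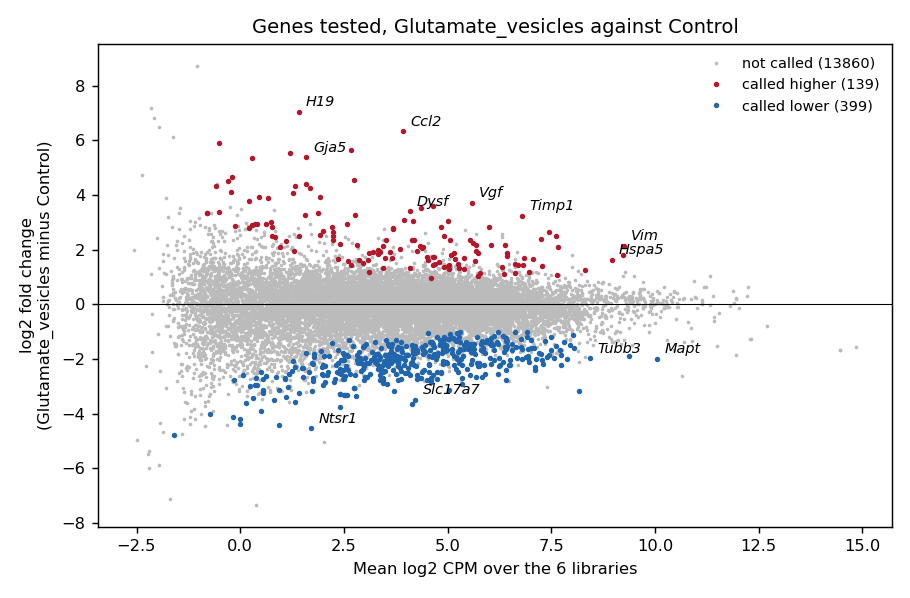
Each point is a gene, with its mean log2 CPM (counts scaled to library size) over the 6 libraries on the x axis and its log2 fold change on the y axis. The 139 genes called higher (red) and the 399 called lower (blue) are drawn over the genes not called (grey), and the smallest absolute log2 fold change of a called gene was 0.95.

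The gap junction gene Gja5 encodes connexin 40, known from arterial endothelium and the conduction system of the heart. Levels are given in CPM, the counts scaled to the library size. Gja5 was at 0.286, 0.196 and 0.70 CPM in Control 1, 2 and 3 and 22.8, 14 and 18.7 CPM in Glutamate_vesicles 1, 2 and 3. The groups were far apart and did not overlap. Gja5 rose by 5.39 ± 0.68 (log2 fold change ± SE, adjusted p = 0.00900). It was the only member called among 9 tested genes for connexins and pannexins, also without Control 1. Dysf encodes dysferlin, a ferlin of the plasma membrane that takes part in calcium-triggered resealing. Dysf stood at 3.71, 4.96 and 7.11 CPM in Control and at 58.4, 35.8 and 79.1 CPM with vesicles, again without overlap, and rose by 3.41 ± 0.47 (adjusted p = 0.0134). Both were called also without the block, with adjusted p = 0.0215 for Gja5 and 0.0215 for Dysf.

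The stretch of 250 bases before the annotated start is shown for genes that moved strongly in either direction, so that the letters near their starts can be compared. The windows were read from the RefSeq promoter table of build GRCr8, on the strand of the gene. Capitals mark the GC box (GGGCGG), the TATA box (TATAAA) and the TGACG core of the cAMP response element, each searched on both strands. Gja5 lies on the plus strand of chromosome 2 (chr2:187290977-187291226) and Dysf on the plus strand of chromosome 4 (chr4:118059918-118060167). Ccn1, on the minus strand of chromosome 2 (chr2:237225690-237225939), encodes a secreted matricellular protein, and Vgf, on the minus strand of chromosome 12 (chr12:25277021-25277270), a secreted neuropeptide precursor. Slc17a7 (chr1:104785955-104786204, plus strand) and Tubb3 (chr19:68365437-68365686, plus strand) are neuronal genes that fell.
Gja5: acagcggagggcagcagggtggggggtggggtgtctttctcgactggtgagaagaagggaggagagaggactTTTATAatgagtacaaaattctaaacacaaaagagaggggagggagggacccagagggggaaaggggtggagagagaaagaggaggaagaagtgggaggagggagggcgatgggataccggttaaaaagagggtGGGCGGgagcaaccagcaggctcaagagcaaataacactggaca
Dysf: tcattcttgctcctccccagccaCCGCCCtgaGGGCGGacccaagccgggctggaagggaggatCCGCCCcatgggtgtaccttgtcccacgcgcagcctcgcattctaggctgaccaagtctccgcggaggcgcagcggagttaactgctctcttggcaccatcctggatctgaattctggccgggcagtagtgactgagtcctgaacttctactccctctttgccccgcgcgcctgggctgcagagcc
Ccn1: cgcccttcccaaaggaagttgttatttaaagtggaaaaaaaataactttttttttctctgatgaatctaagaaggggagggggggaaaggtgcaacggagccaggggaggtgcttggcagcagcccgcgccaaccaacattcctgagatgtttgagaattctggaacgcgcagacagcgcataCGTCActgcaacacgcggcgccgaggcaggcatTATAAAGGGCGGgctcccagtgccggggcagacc
Vgf: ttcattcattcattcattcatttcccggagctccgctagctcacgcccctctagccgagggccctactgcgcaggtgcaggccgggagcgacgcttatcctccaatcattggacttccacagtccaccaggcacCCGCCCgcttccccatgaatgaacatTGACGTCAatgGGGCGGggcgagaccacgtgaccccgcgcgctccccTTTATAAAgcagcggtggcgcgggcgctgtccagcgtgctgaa
Slc17a7: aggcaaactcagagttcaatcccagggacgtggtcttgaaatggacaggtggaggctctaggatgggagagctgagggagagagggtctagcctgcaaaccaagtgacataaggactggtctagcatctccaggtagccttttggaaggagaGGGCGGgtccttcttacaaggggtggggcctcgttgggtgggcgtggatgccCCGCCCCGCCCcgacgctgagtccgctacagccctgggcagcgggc
Tubb3: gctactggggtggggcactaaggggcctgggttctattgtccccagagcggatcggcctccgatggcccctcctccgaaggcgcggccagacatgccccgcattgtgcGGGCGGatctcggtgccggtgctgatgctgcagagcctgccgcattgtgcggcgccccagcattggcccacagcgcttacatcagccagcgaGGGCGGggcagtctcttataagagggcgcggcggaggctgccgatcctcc

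The Gja5 window held a GC box and a TATA box, which began 44 and 178 bases before the start. In the Vgf window a pair of overlapping TGACG cores on opposite strands began 90 and 87 bases before the start, and overlapping TATA boxes 43 and 41 bases before it. The Ccn1 window held a TATA box that began 34 bases before the start, directly followed by a GC box. Neither the TATA box nor the TGACG core was found in the windows of Dysf, Slc17a7 and Tubb3, which held 3, 3 and 2 GC boxes. A promoter entry was found for 112 of the 139 genes that rose and 265 of the 399 that fell. The TATA box was present in 15.2% of windows of genes that rose, in 4.91% of those that fell and in 6.26% of the 10625 windows of genes tested. The GC box was present in 73.2%, 65.3% and 59.2%, and the TGACG core in 26.8%, 22.3% and 27.8%. The AP-1 site (TGACTCA), bound by Fos and Jun proteins, was present in 2.68%, 1.13% and 2.93%, and the EGR core (GCGTGGG) in 4.46%, 11.3% and 6.96%. The E-box (CACGTG) was found in 5.36%, 6.79% and 8.19%, its overlapping hypoxia core (ACGTG) in 21.4%, 16.2% and 22%, and the CCAAT box in 33.0%, 30.2% and 35.3%. Over all 27457 windows of the table these shares were 13.1% for the TATA box, 32.4% for the GC box, 19% for the TGACG core, 3.98% for AP-1, 3.88% for EGR, 5.79% for the E-box, 16.9% for the hypoxia core and 34.3% for CCAAT. These are matches of letters, without a test.

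Chemokines showed some of the largest differences. Ccl2, which attracts monocytes, stood at 1.71, 0.245 and 5.28 CPM in Control and 95.3, 83.3 and 386 CPM with vesicles. Its neighbour in function Ccl7 stood at 0.571, 0.245 and 2.26 CPM and 44.1, 19.7 and 109 CPM. For both genes every library with vesicles was above every Control library, and Glutamate_vesicles 3 was the highest. Ccl2 rose by 6.34 ± 1.17 (adjusted p = 0.0233) and Ccl7 by 5.66 ± 1.01 (adjusted p = 0.0224). They were the only members called of 18 tested inflammatory cytokines and NF-kB targets, whose median log2 fold change was 0.85, and they were also called without Control 1. The adhesion molecule Icam1 (1.31 ± 0.42, adjusted p = 0.0863) and the NF-kB subunit gene Nfkb2 (1.74 ± 0.54, adjusted p = 0.0779) did not pass the test.

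The imprinted long non-coding RNA H19 had the highest log2 fold change among the named genes, 7.04 ± 1.12 (adjusted p = 0.0224). H19 was at 0, 0.0982 and 0.646 CPM in Control, where its counts summed to 14, and at 126, 1.77 and 51.2 CPM with vesicles. Its level among the libraries with vesicles thus spread widely, with Glutamate_vesicles 2 close to Control. Gldn, which encodes gliomedin of the node of Ranvier, moved from 0, 0.0982 and 0.808 to 9.87, 13.3 and 31.1 CPM and rose by 5.53 ± 1.12 (adjusted p = 0.0245). Sphk1, the kinase that makes sphingosine 1-phosphate, moved from 2.57, 0.442 and 1.83 to 34.2, 19.4 and 43.6 CPM and rose by 4.56 ± 0.84 (adjusted p = 0.0233). Neither gene had overlapping groups. The matrix protease gene Adamts1 and its relative Adamtsl3 rose by 4.39 ± 1.12 and 4.06 ± 0.81, from levels of at most 1.62 and 1.13 CPM in Control.

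Membrane repair genes were mostly above 0 in log2 fold change. Of 23 tested members, 6 rose and 0 fell (26.1% called, against 3.74% of all genes tested), and 2 were called without Control 1. The median log2 fold change was 1.14, and 20 members were above 0. Beside Dysf, the calcium-binding S100a11 stood at 0.286, 0.294 and 1.78 CPM in Control and 34.7, 3.41 and 24.3 CPM with vesicles and rose by 4.24 ± 0.72 (adjusted p = 0.0224). S100a10, the partner of annexin A2, stood at 92.2, 32 and 119.8 CPM and 734, 216 and 520.0 CPM and rose by 2.65 ± 0.56 (adjusted p = 0.0274). For both S100 genes Glutamate_vesicles 2 was the lowest of its group, still above each Control library. Anxa5, an annexin that binds exposed phosphatidylserine, rose by 1.58 ± 0.37, from 22.8, 27.7 and 38.5 to 83.2, 68.4 and 115 CPM. The other members that rose, named after their values were seen, were myoferlin (Myof, 2.95 ± 0.72) and annexin A2 (Anxa2, 2.35 ± 0.57).

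Among 29 tested genes of extracellular matrix and matricellular proteins, 7 rose and 1 fell, the median was 1.26, and 5 were called without Control 1. Ccn1 and Ccn2 encode secreted proteins that bind integrins and are known targets of mechanical and growth factor signals. Ccn1 stood at 14.3, 3.98 and 7.05 CPM in Control and 83.9, 113 and 59.1 CPM with vesicles, a rise of 3.59 ± 0.69 (adjusted p = 0.0245). Ccn2 stood at 5.42, 6.23 and 4.42 CPM and 31.9, 65.5 and 41.5 CPM and rose by 3.1 ± 0.53 (adjusted p = 0.0224). The third member of that family named here went the other way: Ccn3 fell by 2.68 on the log2 scale, from 2.28, 2.99 and 3.02 to 0.498, 0.522 and 0.34 CPM. Itga5, the alpha subunit of the fibronectin receptor, rose by 2.76 ± 0.6 (adjusted p = 0.0284).

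Of 16 tested matrix metalloproteinases and inhibitors, 2 rose and 1 fell, and 1 was called without Control 1. Timp1, an inhibitor of matrix metalloproteinases and a marker of reactive astrocytes, stood at 40.8, 20.4 and 51.9 CPM in Control and 689, 184 and 331 CPM with vesicles. No library of either group crossed into the range of the other, and Timp1 rose by 3.24 ± 0.63 (adjusted p = 0.0245). Mmp17, a membrane-anchored protease, fell by 1.8 on the log2 scale (adjusted p = 0.0378), and Mmp19 did not pass the test (1.03 ± 0.45, adjusted p = 0.216).

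**Figure D2:**
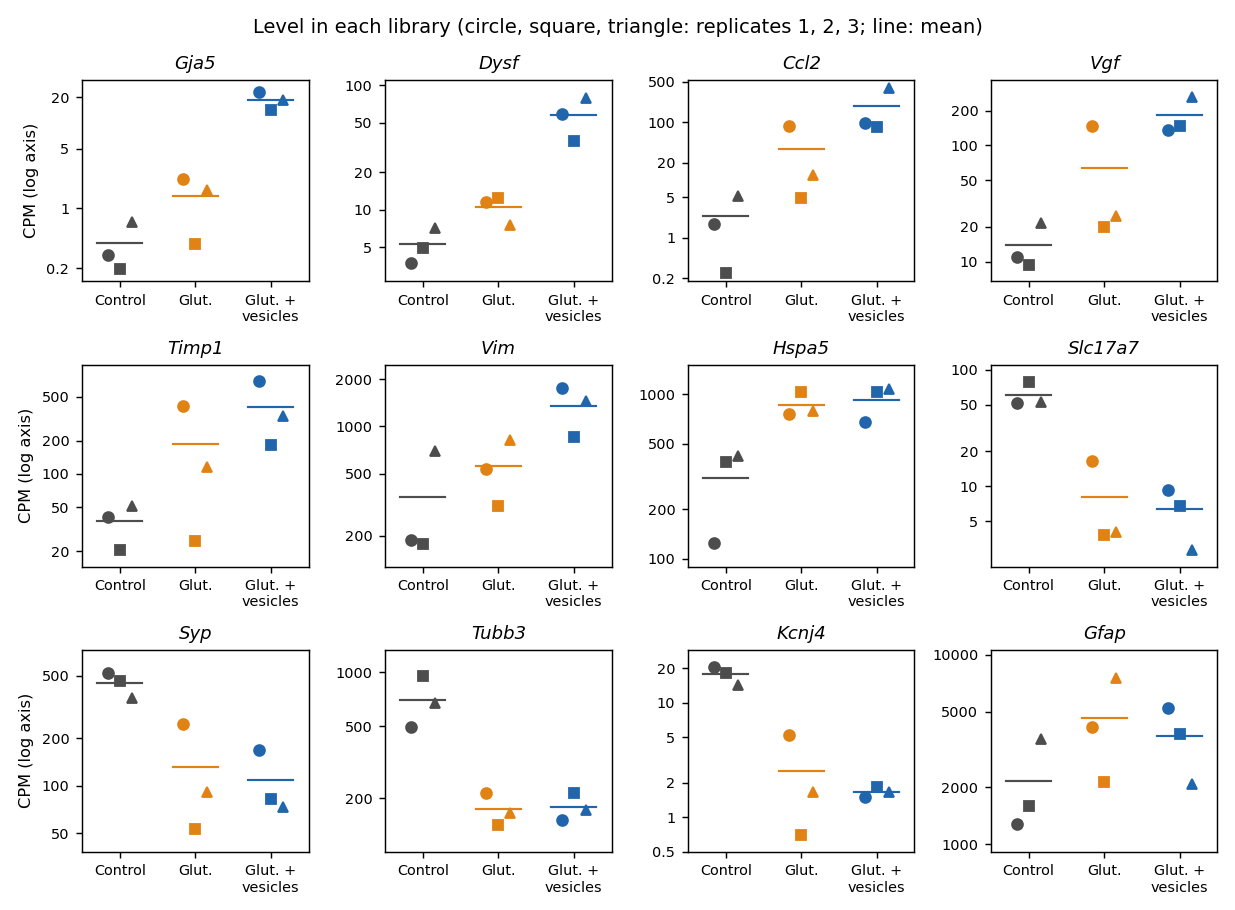
CPM of 12 genes on log axes in each library of Control, Glutamate and Glutamate_vesicles (symbols: replicates 1, 2 and 3; lines: means). Gja5 and Dysf with vesicles lie above all Control and Glutamate libraries, whereas Syp, Tubb3 and Slc17a7 lie below Control in both glutamate groups and Gfap overlaps between all 3.

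Immediate early genes were mostly above 0 in log2 fold change. Of 23 tested immediate early transcription factors and regulators, 3 rose and 0 fell, and 1 was called without Control 1. The median was 1.02, and 16 of the 23 had an unadjusted p below 0.05, against 19.8% of all genes tested. Ier3, an early response gene that modulates survival signals, stood at 1.14, 1.87 and 3.34 CPM in Control and 21.7, 22.7 and 22.4 CPM with vesicles and rose by 3.27 ± 0.68 (adjusted p = 0.0255). Egr2 and Klf4, zinc finger transcription factors, rose by 3.0 ± 0.63 and 1.63 ± 0.4. Fos, the classic marker of neuronal activation, was at 13.7, 11.9 and 9.1 CPM in Control and 36.4, 25 and 23.8 CPM with vesicles. These ranges did not overlap, yet the difference of 1.28 ± 0.38 did not pass the test (adjusted p = 0.0684). Npas4, a neuron-specific activity gene, had 10 counts in the Control libraries together and 11 with vesicles, too few to be tested.

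Genes for effectors of activity did not move together. Of 19 tested, 1 rose, 2 fell and 2 were called without Control 1. Vgf, whose peptides are released by neurons, stood at 10.8, 9.42 and 21.4 CPM in Control and 135, 147 and 263 CPM with vesicles and rose by 3.72 ± 0.72 (adjusted p = 0.0245). The kinase gene Plk2, which acts in homeostatic weakening of synapses, fell by 1.85 on the log2 scale from 30.3, 72.1 and 55.6 to 11.4, 14.3 and 16 CPM. Rgs2, a brake on G protein signals, fell by 1.62, although Control 3 at 37.3 CPM was below Glutamate_vesicles 1 at 37.8 CPM. Bdnf (0.5 ± 0.46, adjusted p = 0.619) and Arc (0.79 ± 0.95, adjusted p = 0.720) did not pass the test. Both had overlapping groups at low levels, Bdnf up to 4.98 CPM and Arc up to 4.89 CPM.

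Growth factor signals and their brakes included genes that rose. Of 18 tested neurotrophic factors and receptors, Fgf2 and Hbegf rose and 0 fell, and 2 were called without Control 1. Fgf2 encodes basic fibroblast growth factor and Hbegf a ligand of the EGF receptor. Hbegf stood at 38, 16.2 and 25.1 CPM in Control and 93.9, 269.8 and 165 CPM with vesicles and rose by 2.82 ± 0.61 (adjusted p = 0.0282). Fgf2 was lower throughout, 1.43, 0.245 and 0.323 CPM against 2.39, 7.14 and 2.43 CPM, and rose by 2.95 ± 0.63. The cytokine gene Lif (2.78 ± 0.81, adjusted p = 0.0665) and the GDNF receptor gene Gfra1 (1.97 ± 0.59, adjusted p = 0.0731) did not pass the test. Among 11 tested brakes on ERK signalling, Spred3 and Spry4 rose by 1.89 ± 0.4 and 1.9 ± 0.51, the phosphatase gene Dusp2 fell by 2.13, and 1 member was called without Control 1. Dusp6 was at 1.27 ± 0.37 (adjusted p = 0.0645).

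The lists of stress pathways had shares of called genes between 4% and 11.1%, against 3.74% of all genes tested. Among 18 tested chaperones and unfolded protein response genes of the endoplasmic reticulum, 2 rose, and 0 were called without Control 1. Hspa5 encodes the chaperone BiP, the main sensor partner of this response. Its level was 125, 388 and 420.3 CPM in Control and 677, 1025 and 1078 CPM with vesicles, a rise of 1.63 ± 0.41 (adjusted p = 0.0404). Control 1 was far below the other Control libraries for this gene. Dnajc3, a co-chaperone and inhibitor of the kinase PERK, rose by 0.95 ± 0.25. Among 18 tested ATF4 targets only Shmt2, a mitochondrial enzyme of 1-carbon metabolism, rose (1.17 ± 0.3), which left 0 called without Control 1, and Ddit3, which encodes the proapoptotic factor CHOP, had a difference of 0.06 ± 0.45 (adjusted p = 0.968).

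Of 25 tested NRF2 antioxidant genes, Gss, which makes glutathione, rose by 1.55 ± 0.38 from 18.8, 12.5 and 16.7 to 76, 25.5 and 55.9 CPM. The haem-degrading Hmox1 was at 0.96 ± 0.52 (adjusted p = 0.332) with overlapping groups. Of 16 tested heat shock proteins, the small chaperone gene Hspb1 rose by 3.51 ± 0.85, from 2.86, 2.7 and 21.5 to 162, 48.7 and 48.9 CPM. Hsp90aa1 had 41112, 3486 and 1809 CPM in Control 1, 2 and 3 and 6392, 1143 and 2054 CPM with vesicles, and its difference of -1.84 ± 0.74 did not pass the test (adjusted p = 0.170). Control 1 exceeded every other library for that gene. Of the NRF2 and heat shock lists, 0 members were called without Control 1.

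Neuron markers were lower with vesicles and glutamate than in Control. The summed level of 14 neuron markers was 3458, 3359 and 2441 CPM in Control 1, 2 and 3 and 1191, 903 and 741 CPM with vesicles. The groups did not overlap, and the exact permutation test gave the smallest p that 3 against 3 libraries allow, 0.1 (adjusted over 14 measures 0.28). All 14 markers were below 0 in log2 fold change, with a median of -1.53. Tubb3, the neuronal beta-III tubulin, Stmn2, a regulator of microtubules in growth cones, the RNA-binding protein gene Elavl4 and the vesicular glutamate transporter gene Slc17a7 fell. Without Control 1, 4 markers were called, but Elavl4 was not among them (adjusted p = 0.0911). In bulk samples, fewer neurons and less neuronal RNA per neuron cannot be told apart.

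Slc17a7 loads glutamate into synaptic vesicles of excitatory neurons. It stood at 51.4, 78.3 and 52.9 CPM in Control and 9.37, 6.74 and 2.87 CPM with vesicles and fell by 3.48 ± 0.71 on the log2 scale (adjusted p = 0.0253). Tubb3 stood at 493, 946 and 669.7 CPM and 152, 215 and 171 CPM and fell by 1.97 ± 0.39 (adjusted p = 0.0245). Mapt, the microtubule-binding protein tau, stood at 3421, 2399 and 1094 CPM and 740.4, 463 and 461 CPM and fell by 1.99 ± 0.46 (adjusted p = 0.0311). For each of these genes the highest library with vesicles was below the lowest Control library. All 17 tested genes of the neuronal cytoskeleton had a log2 fold change below 0, and 3 fell. Without Control 1, 3 were called, but Mapt was not among them (adjusted p = 0.0565). Gap43, a growth cone protein, was just outside the threshold (-1.34 ± 0.36, adjusted p = 0.0502).

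Of 24 tested genes of the synaptic vesicle release machinery, 7 fell, 17 were not called, and 8 were called without Control 1. All 24 had a log2 fold change below 0, with a median of -1.52. Syp, the vesicle membrane protein synaptophysin, stood at 522, 466 and 363 CPM in Control and 169, 82.6 and 73.7 CPM with vesicles and fell by 2.22 ± 0.47 (adjusted p = 0.0273). The SNARE genes Vamp2 and Stx1a fell by 1.39 and 2.15, and the vesicle glycoprotein gene Sv2a by 1.96. Sv2a moved from 163, 178 and 114 to 51.5, 38 and 29.6 CPM. Snap25, the SNARE partner of both, was at 34.3, 99.9 and 105 CPM in Control and 13.3, 38.2 and 27.7 CPM with vesicles. Its groups overlapped through Control 1, and the difference of -1.67 ± 0.51 did not pass the test (adjusted p = 0.0767).

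Receptors for glutamate were lower in level but mostly not called. Of 22 tested ionotropic receptor genes 19 were below 0, with a median of -1.15. None was called by the quasi-likelihood test of edgeR, 12 had an unadjusted p below 0.05, 8 were called by DESeq2 with the block, and 3 were called without Control 1. Grin1, the obligatory NMDA receptor subunit, stood at 44, 98.1 and 94.1 CPM in Control and 30.4, 25.4 and 17.6 CPM with vesicles (-1.85 ± 0.52, adjusted p = 0.0577). Grin2b, a regulatory NMDA subunit, had -2.12 ± 0.66 (adjusted p = 0.0790), and the kainate receptor gene Grik1 had -1.82 ± 0.54 (adjusted p = 0.0699). In neither did the groups overlap. Of 6 tested metabotropic receptor genes, Grm7, a presynaptic autoreceptor, fell by 4.36 from 2.28, 3.68 and 3.34 to 0, 0.562 and 0.146 CPM, and 0 were called without Control 1. In the list of 14 glutamate uptake and glutamine cycle genes, the neuronal transporter gene Slc1a6 fell by 2.07 beside Slc17a7, and 2 were called without Control 1, whereas the astrocytic transporter gene Slc1a3 had 0.55 ± 0.38 (adjusted p = 0.461).

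Genes of inhibitory transmission were also lower. All 19 tested genes for GABA synthesis, transport and receptors were below 0, with a median of -1.57, 4 fell, and 2 were called without Control 1. The vesicular GABA transporter gene Slc32a1 stood at 18.8, 41.2 and 40.8 CPM in Control and 8.47, 12.8 and 9.09 CPM with vesicles, without overlap, and fell by 1.76 (adjusted p = 0.0390). The metabotropic receptor subunit gene Gabbr2 fell by 1.91, and Gabrd, an extrasynaptic subunit, by 2.28 with an adjusted p of 0.0499 and overlapping groups. Lhx6, a transcription factor of cortical interneurons, fell by 3.38 from 3.14, 8.74 and 7.32 to 0.399, 1.2 and 0.486 CPM.

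Among ion channels, 7 of 30 tested potassium and HCN channel genes fell and 0 rose, with a median of -1.25 and 3 called without Control 1. Kcnj4, an inward rectifier, stood at 20.6, 18 and 14.3 CPM in Control and 1.5, 1.85 and 1.65 CPM with vesicles and fell by 3.32 ± 0.73 (adjusted p = 0.0287). Kcnq3, a subunit of the M-current that restrains repetitive firing, fell by 3.24, the leak channel gene Kcnk1 by 2.67 and the fast delayed rectifier gene Kcnc2 by 2.94. Without Control 1 the log2 fold change was -2.23 for Kcnq3 (adjusted p = 0.16) and -2.44 for Kcnc2 (adjusted p = 0.0649). Kcng1, a modulatory subunit outside that list, fell by 3.3. Kcna6 fell by 2.03, with 30.6, 32.8 and 30.4 CPM in Control and 9.67, 7.06 and 7.1 CPM with vesicles. Of 8 tested sodium channel genes, Scn3b and Scn2a fell by 1.91 and 2.03, and 1 was called without Control 1. In Scn2a the groups overlapped, since Glutamate_vesicles 1 at 89.8 CPM exceeded Control 3 at 64.0 CPM.

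No calcium channel gene of 15 tested was called by edgeR. Of these, 8 had an unadjusted p below 0.05, 4 were called by DESeq2 with the block, 3 were called without Control 1, and the median was -1.43. Cacnb3, an auxiliary beta subunit, was nearest to the threshold (-1.45 ± 0.39, adjusted p = 0.0503). Among 21 tested genes of calcium pumps, exchangers and stores, the plasma membrane calcium pump genes Atp2b2, Atp2b3 and Atp2b4 fell by 2.05, 2.82 and 2.46, and 1 was called without Control 1. In Atp2b3, Glutamate_vesicles 1 at 25.8 CPM exceeded Control 3 at 24.0 CPM. The Atp2b3 level of Control 1 was 265 CPM, and its log2 fold change was -2.13 without Control 1 (adjusted p = 0.0787). Atp2b4 moved from 160.5, 67.7 and 60.7 to 16.1, 19.9 and 14.7 CPM. The fourth pump gene, Atp2b1, had 3463, 266 and 138 CPM in Control and 402, 93.8 and 121 CPM with vesicles. Control 1 alone was far above the rest, and the difference of -2.1 ± 0.73 did not pass the test (adjusted p = 0.118).

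Calls were made for 2 of 19 postsynaptic density genes and 1 of 20 synaptic adhesion genes. These calls are too few to compare either share with the 3.74% of all genes tested. Of 19 tested postsynaptic density genes, the kinase subunit gene Camk2b and the scaffold gene Dlgap1 fell by 1.97 and 1.36, 0 rose, and the median was -1.32. Camk2a, the other main neuronal subunit of this calcium-dependent kinase, had -2.58 ± 0.77 (adjusted p = 0.0697). Of 20 tested synaptic adhesion genes, LRRTM1, a postsynaptic binding partner of neurexins, fell by 1.97 ± 0.35 (adjusted p = 0.0224), from 25.1, 30.0 and 33.9 CPM in Control to 6.08, 9.63 and 7.48 CPM with vesicles. Without Control 1, 2 members of each list were called, but Dlgap1 was not among them (adjusted p = 0.126). All 14 tested neuropeptide and granin genes were below 0. The secretory granule genes Scg5 and Chga and the cholecystokinin gene Cck fell by 2.57, 1.64 and 2.75. Without Control 1, 3 members were called, but Chga was not among them (adjusted p = 0.0533). Scg5 had 151, 27.6 and 59.1 CPM in Control and 33.3, 4.61 and 6.22 CPM with vesicles, so that Control 2 lay below Glutamate_vesicles 1.

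Large falls were seen in neuronal receptors and regulators. Ntsr1, the receptor for neurotensin that marks deep-layer projection neurons, stood at 6.0, 19.3 and 19.2 CPM in Control and 0.598, 1.16 and 0.389 CPM with vesicles and fell by 4.53 ± 0.91 (adjusted p = 0.0245). Dclk3, a kinase of the doublecortin-like family, moved from 14.6, 20.9 and 19.8 to 1.4, 1.56 and 1.26 CPM and fell by 3.75 ± 0.72. Both genes were far below Control in every library with vesicles. Plppr4, a phospholipid phosphatase-related protein of excitatory synapses, fell by 3.63 and Npy1r, a neuropeptide Y receptor, by 3.59. The Plppr4 level of Control 1, 171 CPM, was well above the 32.2 and 31.9 CPM of Control 2 and 3, and its log2 fold change was -2.64 without Control 1 (adjusted p = 0.0746). The adaptor gene Sla fell by 3.36. Among the most abundant genes that fell were Tmem130, a membrane protein (3.17), and Celf4, a neuronal RNA-binding protein (1.99). Tmem130 had 3709, 469 and 313 CPM in Control and 276, 57.8 and 62.8 CPM with vesicles, and its log2 fold change was -2.74 without Control 1 (adjusted p = 0.0605). Celf4 had 1222, 375 and 203 CPM in Control, and its log2 fold change was -1.62 without Control 1 (adjusted p = 0.0934).

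**Figure D3:**
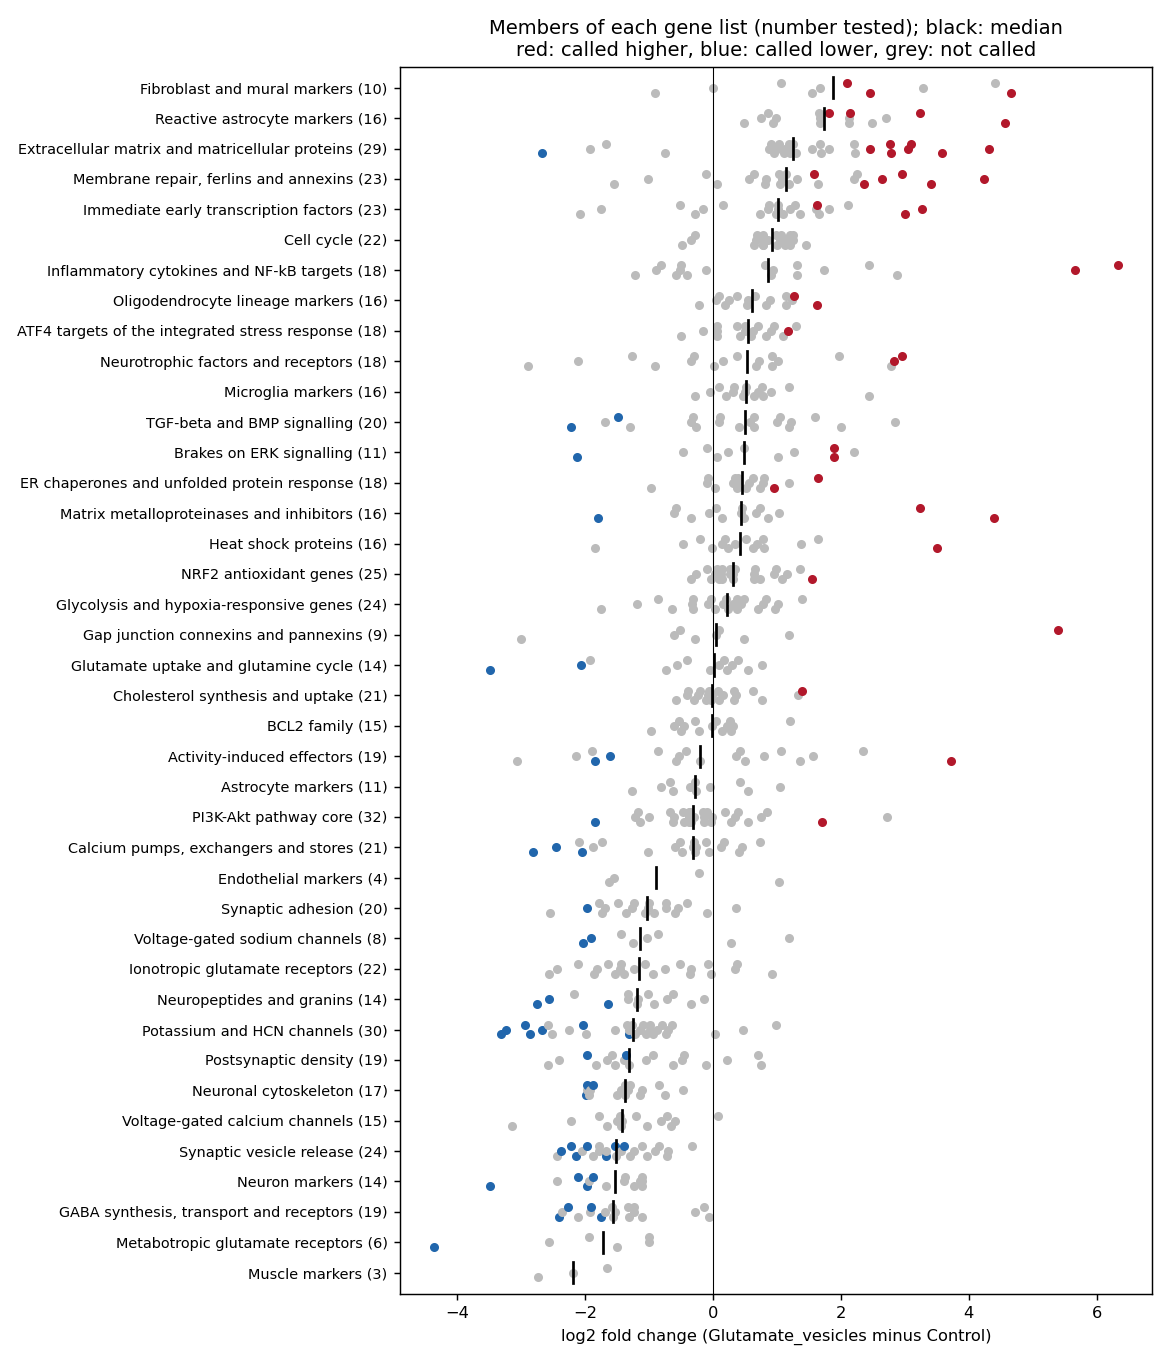
Each point is a tested gene, placed by its log2 fold change within its list, and a black bar gives the median of the list. Lists of synaptic, channel and neuronal cytoskeleton genes have medians between -1.03 and -1.72 apart from calcium pumps and glutamate uptake. The lists of extracellular matrix and matricellular proteins, membrane repair and reactive astrocyte genes have medians above 1. The list of matrix metalloproteinases and inhibitors has a median of 0.44.

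Glial and other cell type markers gave a mixed picture. The summed level of reactive astrocyte markers was 548, 688 and 1459 CPM in Control and 4049, 2818 and 3773 CPM with vesicles (exact permutation p = 0.1, adjusted 0.28). Of 16 tested members all were above 0, 4 rose, and 3 were called without Control 1. Vim, the intermediate filament of astrocytes and mesenchymal cells, stood at 188, 178 and 694 CPM in Control and 1762, 854 and 1456 CPM with vesicles and rose by 2.14 ± 0.49 (adjusted p = 0.0311). Nes, the filament of progenitors and reactive astrocytes, moved from 259.8, 368 and 359 to 1277, 737 and 1488 CPM and rose by 1.81 ± 0.35 (adjusted p = 0.0245). General astrocyte markers did not separate the groups, with summed levels of 4824 to 8606 CPM in Control and 5251 to 9785 CPM with vesicles (exact permutation p = 0.5). None of 11 tested astrocyte markers was called by edgeR or by DESeq2, 0 had an unadjusted p below 0.05, and 0 were called without Control 1. Gfap, the defining filament of astrocytes, was at 1275, 1590.3 and 3603 CPM in Control and 5216, 3812 and 2066 CPM with vesicles, an overlap, with a difference of 1.05 ± 0.51 (adjusted p = 0.269).

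Oligodendrocyte lineage markers summed to 591, 1099 and 1141 CPM in Control and 1389, 2053 and 1816 CPM with vesicles (exact permutation p = 0.1, adjusted 0.28). Olig1, a transcription factor of that lineage, stood at 207, 200.2 and 210.2 CPM in Control and 496, 389 and 637 CPM with vesicles and rose by 1.27 ± 0.32 (adjusted p = 0.0414). Cspg4, the NG2 proteoglycan of progenitors and pericytes, rose by 1.63 ± 0.43. These were the members called of 16 tested, and 0 were called without Control 1. Microglia markers summed to 85.4 to 226 CPM in Control and 139 to 327 CPM with vesicles (exact permutation p = 0.4). Of 16 tested microglia markers edgeR called 0 and DESeq2 1, with 2 at an unadjusted p below 0.05 and 0 called without Control 1.

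Fibroblast and mural markers summed to 61.2 to 175 CPM in Control and 288 to 699 CPM with vesicles (exact permutation p = 0.1, adjusted 0.28), and moved with the matrix genes above. Of 10 tested, 8 were above 0 and 2 below, 3 rose, and 1 was called without Control 1. Tagln, an actin-binding protein of smooth muscle, moved from 139, 48.1 and 159 to 662, 261 and 389.9 CPM and rose by 2.09 ± 0.5. This gene made up most of the sum in every library, so the sum is not a result separate from Tagln. Cnn1, calponin of smooth muscle, rose by 4.66 ± 0.89 and the collagen gene Col1a1 by 2.46 ± 0.65. The other 7 members were too low to be tested. Of these, 5 had more counts over the libraries with vesicles than over Control, among them Kcnj8 (1 in Control, 26 with vesicles), Des (8 and 23) and Acta2 (3 and 13). Lum and Rgs5 had equal counts, Rgs5 none in either group. Counts of untested members in this paragraph are not scaled to library size. The mean library total was 12123100 counts in Control and 14819200 with vesicles. Endothelial markers summed to 7.42 to 12.2 CPM in Control and 5.38 to 15.5 CPM with vesicles (exact permutation p = 1), and only 4 of 17 found in the files had enough counts to be tested. The edgeR test called 0 of these 4, as did DESeq2, with 1 at an unadjusted p below 0.05 and 0 called without Control 1. The other 13 summed to 91 counts over the Control libraries and 186 with vesicles. Of these, 8 had more counts with vesicles, the most for Sox7 (3 in Control, 55 with vesicles), Flt1 (2 and 23), Cdh5 (4 and 18) and Dll4 (1 and 18), 2 had equal counts, and 3 had fewer, namely Esam, Gja4 and Nos3. The part of endothelial cells in the rise of Gja5 was not tested. Muscle markers summed to 7.97 to 23.7 CPM in Control and 2.29 to 7.18 CPM with vesicles, and 0 of 3 tested were called by edgeR with or without Control 1 (3 at an unadjusted p below 0.05, 2 called by DESeq2). The part of cell composition in these differences was not tested.

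**Figure D4:**
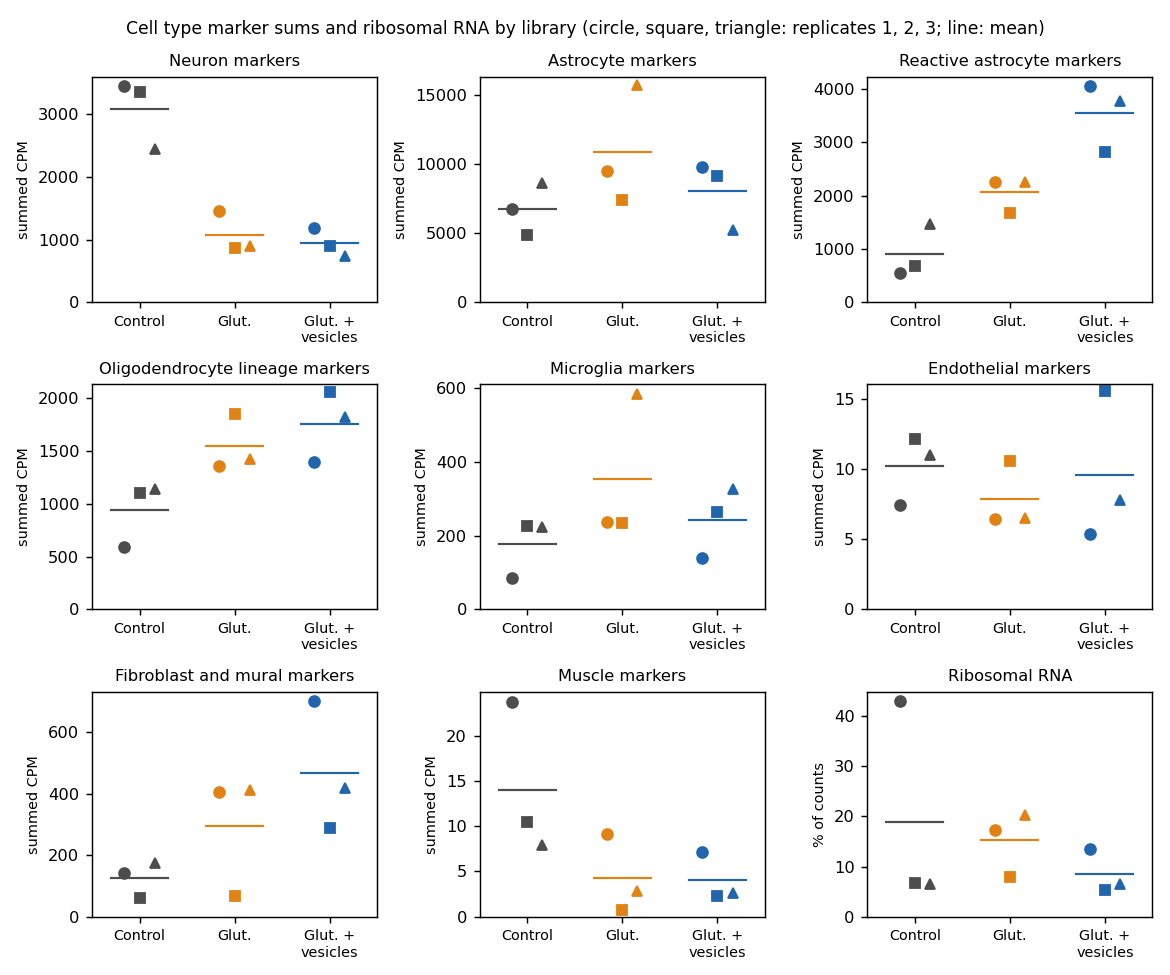
Summed CPM of each cell type marker list and the share of ribosomal RNA, by library (symbols: replicates 1, 2 and 3; lines: means), for Control, Glutamate and Glutamate_vesicles. Neuron marker sums are 2441 to 3458 CPM in Control and 741 to 1191 CPM with vesicles, and Control 1 has 43.0% ribosomal RNA.

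Of 32 tested genes of the PI3K-Akt core, a pathway that carries growth factor signals to survival and protein synthesis, 1 rose, 1 fell (6.25% called, against 3.74% of all genes tested), and 1 was called without Control 1. Igfbp3, which binds insulin-like growth factors outside the cell, stood at 42, 58.7 and 104 CPM in Control and 171, 174 and 309.7 CPM with vesicles and rose by 1.7 ± 0.4 (adjusted p = 0.0335). Pik3cd, a catalytic PI3K subunit, moved from 9.42, 10.7 and 10.9 to 2.59, 3.33 and 2.82 CPM and fell by 1.84 ± 0.39 (adjusted p = 0.0266). Igf2, a growth factor that lies beside H19 and is imprinted, was at 0.857, 0.344 and 0.377 CPM in Control and 6.68, 0.401 and 5.01 CPM with vesicles, with overlap through Glutamate_vesicles 2 (2.72 ± 0.79, adjusted p = 0.0647).

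Of 15 tested BCL2 family genes, which set the threshold for apoptosis, edgeR and DESeq2 called 0, with 2 at an unadjusted p below 0.05 and 0 called without Control 1. The proapoptotic Pmaip1 had 1.21 ± 0.51 (adjusted p = 0.194). Of 22 tested cell cycle genes edgeR called 0 and DESeq2 8, and 15 had an unadjusted p below 0.05, against 19.8% of all genes tested. The median was 0.92, 19 were above 0, and 0 were called without Control 1. Cdkn1a, the inhibitor p21, had 1.21 ± 0.33 (adjusted p = 0.0550), and Mcm2, a subunit of the replicative helicase, 1.2 ± 0.33 (adjusted p = 0.0577). Of 20 tested TGF-beta and BMP genes, the ligand gene Tgfb2 and the target gene Id2 fell by 2.22 and 1.49, with 1 called without Control 1. Msmo1, a sterol synthesis enzyme, rose by 1.39 ± 0.33 as the only member called of 21 cholesterol genes (4.76%, against 3.74% of all genes tested). Of these genes 0 were called without Control 1. Of 24 tested glycolysis and hypoxia genes edgeR called 0 and DESeq2 7, with 9 at an unadjusted p below 0.05 and 2 called without Control 1, and the neuronal enolase gene Eno2 had -1.19 ± 0.34 (adjusted p = 0.0634). Atf3, a stress transcription factor, stood at 8.57, 7.17 and 9.96 CPM in Control and 11, 28.7 and 13.4 CPM with vesicles (1.02 ± 0.49, adjusted p = 0.262).

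The same genes were also read in the Glutamate libraries, which share the Control libraries as reference, so that the values are given side by side without a measure of likeness. Against Control, 166 genes (1.15%) were called in Glutamate, 7 higher (0.0486%) and 159 lower (1.1%). Slc17a7 had a log2 fold change of -3.26 ± 0.72 in Glutamate against -3.48 ± 0.71 with vesicles, and Tubb3 -2.01 ± 0.39 against -1.97 ± 0.39. Syp had -2.11 ± 0.47 against -2.22 ± 0.47, and neuron marker sums in Glutamate were 859 to 1455 CPM. Ccn1 had 3.48 ± 0.69 against 3.59 ± 0.69. Ccl2 had 3.76 ± 1.12 (adjusted p = 0.101) against 6.34 ± 1.17, and Ccl7 3.19 ± 0.97 (adjusted p = 0.109) against 5.66 ± 1.01. In Glutamate 1, Ccl2 was at 84.5 CPM and Ccl7 at 27.4 CPM, above Glutamate_vesicles 2 at 83.3 and 19.7 CPM. Fos had 2.07 ± 0.39 (adjusted p = 0.0398) in Glutamate against 1.28 ± 0.38 with vesicles. Tested directly by edgeR, Fos with vesicles differed from Glutamate by -0.78 ± 0.37 (unadjusted p = 0.051). The CPM of these groups overlapped, and the difference did not pass the adjusted threshold. For Gja5 the values were 1.58 ± 0.68 (adjusted p = 0.276) and 5.39 ± 0.68, and for Dysf 0.93 ± 0.45 (adjusted p = 0.348) and 3.41 ± 0.47.

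The direct test of Glutamate_vesicles against Glutamate called 0 genes with edgeR and the block (0%), with 463 genes (3.22%) at an unadjusted p below 0.05, 460 (3.19%) of them with a fold above 1.5, and a smallest adjusted p of 0.161. DESeq2 with the block called 6 genes, all higher with vesicles, namely Gja5, H19, Dysf, Adamtsl3, S100a11 and Adamts7, the last named after its values were seen. Gja5 stood at 2.2, 0.381 and 1.65 CPM in Glutamate, below each library with vesicles, a difference of 3.81 ± 0.61 (edgeR adjusted p = 0.161). Dysf stood at 11.5, 12.5 and 7.49 CPM, a difference of 2.49 ± 0.45 (edgeR adjusted p = 0.220). S100a11 stood at 3.23, 0.317 and 1.85 CPM (3.49 ± 0.69), H19 at 0.904, 0.254 and 0.584 CPM (6.17 ± 1.06) and Adamtsl3 at 0.129, 1.84 and 0.292 CPM (4.43 ± 0.82). For these 5 genes every library with vesicles was above every Glutamate library, and groups were separate in either direction for 6.27% of all genes tested. Of the 14 neuron markers, 8 were lower and 6 higher than in Glutamate, with log2 differences from -1.37 to 0.64, a median of -0.32 and 0 at an unadjusted p below 0.05. Slc17a7, Tubb3 and Syp differed by -0.22 ± 0.67, 0.04 ± 0.38 and -0.1 ± 0.45. Some other neuronal genes were further below Glutamate, with Scn2a at -1.16 ± 0.52 (unadjusted p = 0.0399) and Celf4 at -1.01 ± 0.46 (unadjusted p = 0.0415). So were Atp2b4 at -1.01 ± 0.55, Mapt at -0.76 ± 0.44 and Sv2a at -0.7 ± 0.38. Others were above Glutamate, with Npy1r at 0.62 ± 0.84, Slc32a1 at 0.5 ± 0.44 and LRRTM1 at 0.31 ± 0.35. None of these passed the adjusted threshold in edgeR.

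**Figure D5:**
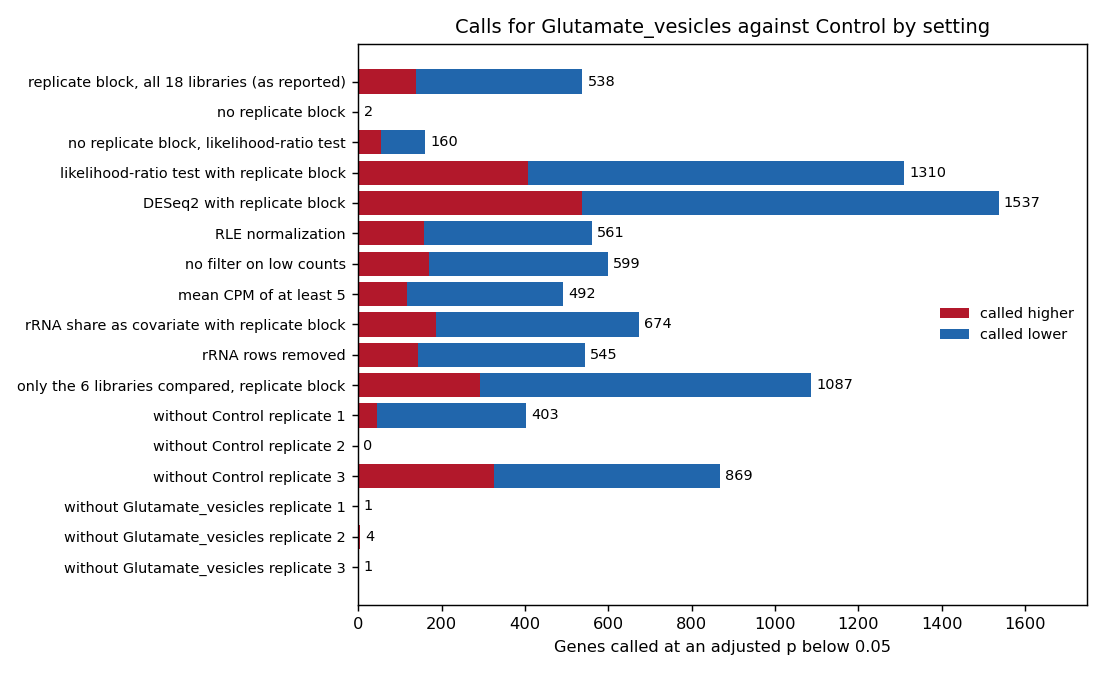
Number of genes called at an adjusted p below 0.05 for Glutamate_vesicles against Control under each setting, split into higher (red) and lower (blue). The count is 538 as reported, 2 without the replicate block, 1537 with DESeq2 and the block, and 0 to 869 when a library is left out.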

How the data were processed

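The 18 libraries of RNA sequencing formed 6 groups of 3 by title. The authors removed adapters and poor bases (Trimmomatic, Cutadapt), ran Salmon against rat Ensembl transcripts with the rn6 genome as decoy, and summed transcripts per gene with tximport. The processing notes in the labels also name STAR. The versions of STAR and Salmon are not given in the sources used here. Deposited values are expected counts for 31463 features per library, which were rounded to whole numbers here. No column of another series was present.

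Genes were kept by filterByExpr of edgeR (minimum count 10, minimum total 15), which left 14398. All 18 libraries were fitted with the quasi-likelihood test of edgeR 4.0.16 (R 4.3.3) on TMM-normalized counts, with group and replicate number as terms. P-values were adjusted by the Benjamini-Hochberg method and 0.05 was the threshold. Fold changes are log2 values with standard errors. CPM values are counts scaled by the TMM-scaled library size. Marker sums were compared with 2-sided exact permutation tests. The scripts were tested on simulated data. Ribosomal RNA features (78) stayed in the library totals.

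The replicate number was used as a block because the comparison was defined with it as the pair. Deviations from the group means correlated between same-numbered Control and Glutamate_vesicles libraries with r = 0.600, 0.505 and 0.208, each above the minimum of 0.1. Control 3 also correlated with Glutamate_vesicles 2 (r = 0.522), and Control 2 with Glutamate_vesicles 3 (r = 0.213). Between libraries 2 and 3, same-numbered pairs thus correlated no more than crossed pairs, so these values do not show pairing by number there. What the numbers stand for is not given in the labels. The supplement names day as the removed covariate for a plot of another comparison. Its plot with the Control and Glutamate_vesicles groups also used counts corrected for batch, without naming the batch.

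The comparison, gene lists and rules were chosen with earlier results of these data known. Genes were named when they had the 10 highest or 10 lowest fold changes among calls whose groups did not overlap and whose mean log2 CPM reached 1, were called also without the block, were among the 5 most abundant called in each direction, had 1 of the 4 smallest p-values of a list, or belonged to a fixed set of activity genes (Arc, Bdnf, Fos, Npas4), stress genes (Hmox1, Ddit3, Atf3) and markers (Snap25, Gfap, Timp1). Myof, Anxa2 and Adamts7 were added after their values were seen. Some genes that the rule names are not reported here. Alternatives were no block, likelihood-ratio tests, DESeq2 1.42.0, RLE normalization, other filters, ribosomal RNA as a covariate or removed, the 6 libraries alone, and leaving out each library. Promoter windows were matched by symbol to the RefSeq table of GRCr8.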

Additional observations from a re-analysis of the deposited data

Results flagged for a closer look

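The preparations Glutamate_secret and Glutamate_BPC took no part in the comparison, yet the genes that separated vesicles from Control most firmly were read in them too, because their levels lay above every Control library. Dysf was at 20.3, 40.6 and 15.7 CPM in Glutamate_secret 1, 2 and 3 and at 23.9, 21.4 and 21.5 CPM in Glutamate_BPC, with a highest Control value of 7.11 CPM. Gja5 was at 3.15, 4.38 and 3.26 CPM in Glutamate_secret and at 8.06, 10.0 and 3.15 CPM in Glutamate_BPC, with a highest Control value of 0.700 CPM. The lowest of these levels were 15.7 and 21.4 CPM for Dysf and 3.15 CPM in both groups for Gja5. The lowest level with vesicles was 35.8 CPM for Dysf, which only Glutamate_secret 2 exceeded, and 14.0 CPM for Gja5, which none of the 6 libraries reached. In Memantine, Dysf was at 14.6, 7.67 and 5.68 CPM and Gja5 at 0.752, 0.389 and 0.862 CPM, which overlapped Control. These levels were not tested.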

How the results depend on the processing

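The number of genes called for Glutamate_vesicles against Control depended on the replicate block, the test and single libraries, and the cause was not tested. Against 538 with the block, 2 were called without the replicate block, 160 by the likelihood-ratio test without it, 1310 by that test with it, 1537 by DESeq2 with it, and 1087 when the 6 libraries were fitted alone. Leaving out 1 library gave 0 to 869 calls, with 0 without Control 2, 869 without Control 3 and 1, 4 and 1 without Glutamate_vesicles 1, 2 and 3. RLE normalization (561), no filter (599), a mean CPM of at least 5 (492), ribosomal RNA as covariate (674) or removed (545) stayed within 1.5 times. The share of higher calls was 25.8%, 11.4% without Control 1 and 37.5% without Control 3. Genes with an unadjusted p below 0.05 and a fold above 1.5 numbered 2817 with the block, 1665 without it, 1811 by the likelihood-ratio test without it, and 1891 to 3612 with a library left out. Called list members numbered 84, 2 without the block, 206 by DESeq2 and 0 to 119 with a library left out.

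For Glutamate against Control, 166 calls became 0 without the block (1167 at an unadjusted p below 0.05), 45 by the likelihood-ratio test without it, 777 with it, 949 by DESeq2, 300 without a filter, 614 with ribosomal RNA as covariate, 318 in the 6 libraries alone, and 0 to 430 with a library left out. For Glutamate_vesicles against Glutamate, 0 calls became 2 by the likelihood-ratio test without the block, 8 with it, 6 by DESeq2, 2 without a filter, 1 with the covariate, 3 in the 6 libraries alone and 0 to 1 with a library left out. Of 116 genes followed, the 88 called kept their direction under each alternative. The alternatives reuse libraries on which these genes were selected, so this is no separate support. Ddit3, not called, ranged from -0.27 without Control 3 to 0.53 without Control 2 and was -0.09 without Glutamate_vesicles 2. Genes with few counts, such as Npas4, could not be tested at this depth.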
